A study of Mus musculus with 12 samples.

Results

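The genes described here are the chemokines and chemokine receptors of the mouse heart. They were chosen as all protein-coding genes whose symbols begin with Ccl, Cxcl, Ccr, Cxcr, Ackr, Cx3c, Xcl or Xcr and go on with a number or with the letters l or r, and which had at least 30 counts summed over 12 heart libraries. Of 21906 protein-coding genes in the files, 61 carried such a symbol and 44 reached the minimum, among them 27 ligands and 17 receptors. The other 17 genes fell short of it, and 3 of these (Ccl20, Ccl21b and Ccl27b) had no count in any library. Just under the minimum lay Xcl1 with 14 counts, Ccl17 with 19 and Cxcl3 with 20, and just over it lay Cxcl13 with 39, Ccr10 with 46 and Ccl22 with 48. The remaining genes under the minimum were Ccl1, Ccl26, Ccr1l1, Ccr3, Ccr4, Ccr6, Ccr8, Ccr9, Cxcl15, Cxcl17 and Cxcr1.

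Polyadenylated RNA of whole mouse hearts was sequenced 6 weeks after an operation, in 3 groups of 4 libraries. The Sham WT hearts came from mice that were wild type for Nron and had a sham operation. The TAC WT hearts came from mice wild type for Nron with transverse aortic constriction (TAC), an operation that ties a constriction around the aortic arch so that the left ventricle pumps against a raised pressure. The TAC KO hearts came from Nron knockout mice with the same constriction, and a sham-operated knockout group was not analysed here. How the knockout was made, the strain, and the age and sex of the mice are not stated in the sources used here, nor whether each library stood for a separate animal, so p-values measure the spread among these libraries, which may be technical. Libraries are numbered within each group only as names.

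Chemokines are small secreted proteins that steer moving cells, mainly leukocytes, along gradients. Most act through G protein-coupled receptors that signal through inhibitory G proteins, arrestins, phosphoinositide 3-kinase and small GTPases. Atypical receptors do not signal through G proteins, and most of them bind chemokines and remove or store them. In the heart, resident cells such as fibroblasts and endothelial cells release chemokines, and monocytes, macrophages, lymphocytes and neutrophils carry most of the receptors. Nron is a noncoding RNA known as a repressor of NFAT, a transcription factor that calcineurin activates in stressed heart muscle and in lymphocytes.

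Library totals ran from 26288519 to 35945770 counts, and 21642 to 22597 genes had a count in each library. Both Nron records were at 0 counts in all 12 libraries, so the transcript gave no check of the knockout label. Cardiomyocyte markers were high in every library, with summed levels of 71180 to 88110 CPM, counts scaled to the library's total, as a heart sample should show. In each library the trend of gene levels with GC content was the median log2 deviation of the genes richest in GC minus that of the poorest. It lay between 0.10 and 0.43 in TAC KO against -0.15 to -0.04 in the wild-type groups. The trend with transcript length lay between -0.26 and -0.15 in TAC KO and between -0.04 and 0.19 in the wild-type groups. These trends move with the knockout group, so every change was also computed with both trends removed. In whole tissue, fewer cells of a type and less RNA per cell cannot be told apart.

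Across all libraries the chemokine and receptor transcripts together took a small share of the counts, 0.0587% ± 0.00678 in Sham WT and 0.0630% ± 0.00631 in TAC WT, while TAC KO had 0.0523% ± 0.00328 (SD, n = 4). A single ligand, Cxcl12, gave 57.4% of all counts of the 44 genes, and its scavenger Ackr3 gave 15.3%. The share of Cxcl12 within the family was 62.7 to 66.2% in the Sham WT libraries and 50.5 to 61.8% in TAC WT, against 43.2 to 52.9% in TAC KO. The Sham WT range lay above both others, while TAC WT and TAC KO overlapped.

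Levels were set between genes as CPM per kb of exons. On that scale Cxcl12 stood at 40.8, Ackr3 at 26.5, Cxcl14 at 14.3, Ccl2 at 9.56 and Ccl7 at 8.29 over all libraries. Among the signalling receptors Cxcr4 was the most abundant per length, at 3.86, followed by Cx3cr1 at 1.22 and Ccr2 at 0.677. Xcr1, which marks cross-presenting dendritic cells, was lowest of the 44 genes at 0.0313. The 3 genes given as markers of the family were thus all measured, with 129779 counts for Cxcl12, 4193 for Ccl2 and 2152 for Cx3cr1.

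**Figure D1:**
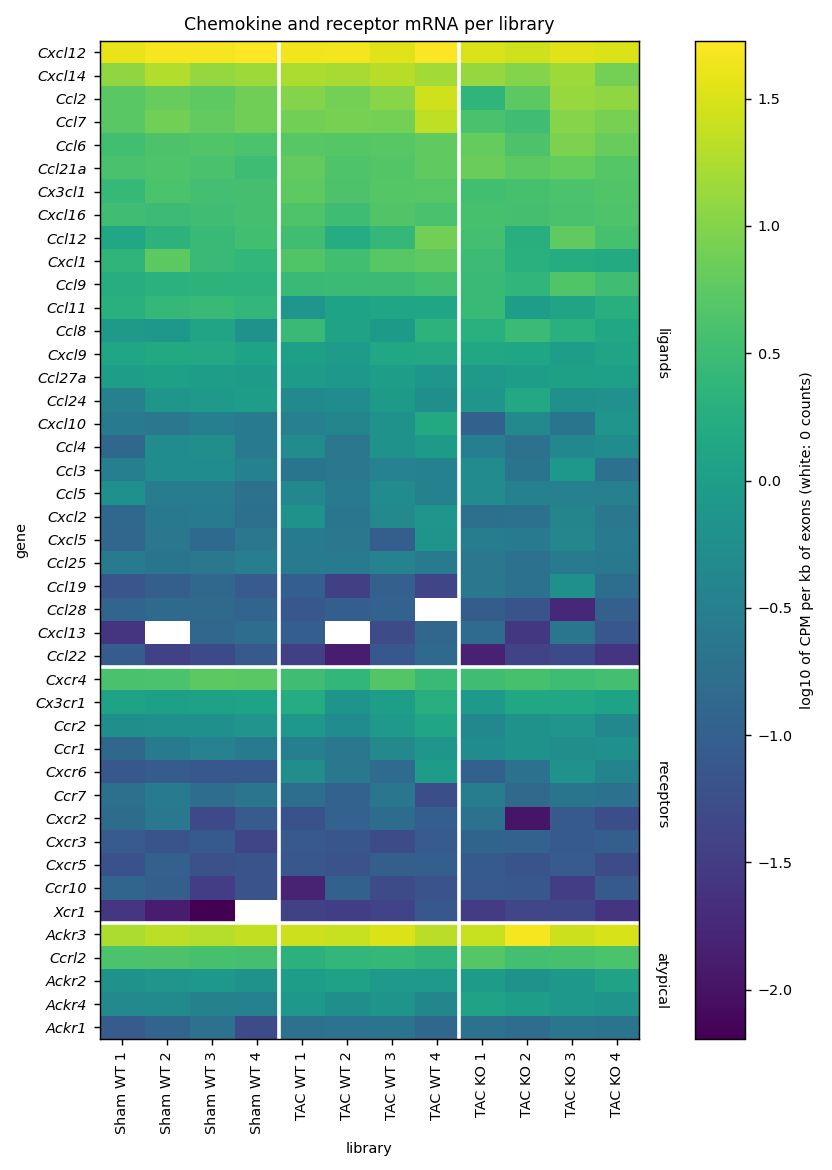
Level of 43 of the 44 genes (rows, grouped as ligands, receptors and atypical receptors) in each of the 12 libraries (columns), as log10 of CPM per kb of exons on the color scale, with white for 0 counts. Cxcl12 and Ackr3 form the brightest rows of their blocks in all libraries, and white cells occur only for Ccl28, Cxcl13 and Xcr1.

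Of the 44 genes, 36 passed the filter on low counts and were tested, and 8 (Ackr1, Ccl19, Ccl22, Ccr10, Cxcl13, Cxcr3, Cxcr5 and Xcr1) were too low. Each gene was tested with edgeR's quasi-likelihood test over all 15477 genes that passed the filter, and a gene was called at a Benjamini-Hochberg adjusted p under 0.05. TAC WT stands in 2 of the 3 comparisons, as do Sham WT and TAC KO, so the comparisons share libraries and are not independent of each other. In at least 1 comparison 15 of the tested genes were called, and 21 were called in none.

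Between TAC WT and Sham WT, 6 of the 36 genes were called, or 16.7%, where 19.7% of all tested genes were. Cxcl2, Cx3cl1, Cxcr6 and Ccl9 rose after constriction, which is 11.1% of the tested family against 9.67% of all genes called higher. Cxcr6 is in this count, and in those below for libraries wholly above and for unadjusted p. No Sham WT library had Cxcr6 at the filter level, so it was tested through the TAC groups in which it was high. Ccrl2 and Ccl11 fell, which is 5.56% against 10% of all genes called lower. The median log2 change of the 36 genes was 0.36 and that of all tested genes was -0.00045, with 25 of 36 genes above 0. The libraries of TAC WT lay wholly above those of Sham WT for 8 genes and wholly below for 3, or 30.6% of the family against 24.7% of all tested genes. At an unadjusted p under 0.05 there were 15 genes, or 41.7% against 33.1% of all genes.

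Between TAC KO and TAC WT, 5 of the 36 genes were called, or 13.9% against 33% of all tested genes. Ccrl2 rose, and it was the one gene called higher (2.78% of the family against 15.7% of all genes). Cxcl1, Cxcl2, Cxcl12 and Cxcl14, all ligands of the CXC class, fell (11.1% against 17.3% of all genes). The median log2 change was -0.02 in the family and -0.0020 over all genes. The libraries did not overlap for 4 genes, Ccrl2 above and Cxcl1, Cxcl12 and Cxcl14 below, or 11.1% against 28.5% of all tested genes. An unadjusted p under 0.05 was reached by 9 genes, or 25% against 43.4% of all genes.

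Between TAC KO and Sham WT, 9 of the 36 genes were called, or 25% against 27.6% of all tested genes. Ackr3, Ackr4, Ccl21a, Ccl6, Ccl8, Ccl9, Ccr1 and Cxcr6 were higher in TAC KO, which is 22.2% of the family against 12.8% of all genes called higher. Cxcr6, tested through the TAC groups in which it was high, is in this count. It is also in those below for libraries wholly above and for unadjusted p. Cxcl12 was lower, which is 2.78% against 14.8%. The median log2 change was 0.09 in the family and 0.00031 over all genes. TAC KO libraries lay wholly above those of Sham WT for 9 genes and wholly below for 3, or 33.3% against 30.7% of all tested genes, and 12 genes (33.3% against 40.1%) had an unadjusted p under 0.05. This comparison joins the operation and the knockout, whose separate parts cannot be told apart in it.

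**Figure D2:**
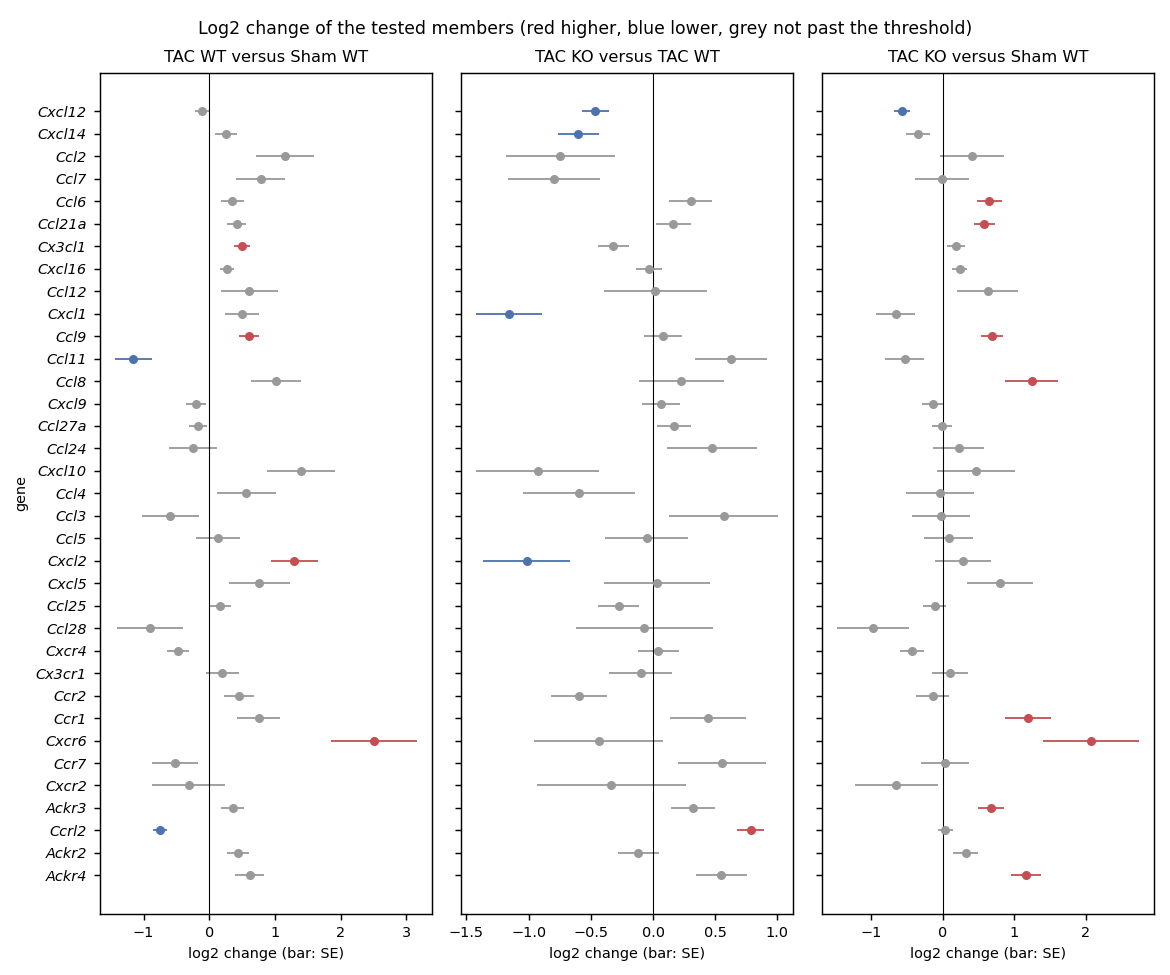
Log2 change (points) with its standard error from edgeR (bars) for 35 of the 36 tested genes, in 1 panel per comparison, with red for called higher, blue for called lower and grey for not called. Red points are 4 in the panel of TAC WT against Sham WT, 1 in that of TAC KO against TAC WT and 8 in that of TAC KO against Sham WT.

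Cxcl12, on chromosome 6 (chr6:117168535-117181367, GRCm38), encodes the ligand of Cxcr4 and Ackr3, and keeps progenitor cells and leukocytes in their niches. Its levels in the 4 Sham WT libraries were 319.8, 389.5, 390.7 and 436.5 CPM. In TAC WT they were 354.2, 366.5, 294.3 and 411.3 CPM, and in TAC KO 259.8, 225.0, 292.6 and 257.4 CPM. Every TAC KO library was below every wild-type library, although the highest TAC KO value and the lowest TAC WT value were close, whereas the wild-type groups overlapped. Group means were 384 ± 48.1, 357 ± 48.2 and 259 ± 27.6 CPM for Sham WT, TAC WT and TAC KO (SD, n = 4). The log2 change of Cxcl12 from TAC WT to TAC KO was -0.46 (SE 0.11, edgeR adjusted p = 0.0062), and from Sham WT to TAC KO it was -0.57 (SE 0.11, adjusted p = 0.0022). Between the wild-type groups the log2 change was -0.11 (SE 0.11, adjusted p = 0.54). With the GC and length trends removed, the changes in TAC KO were -0.38 against TAC WT and -0.50 against Sham WT.

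Ackr3, the atypical receptor that takes up and degrades CXCL12, went the other way. It lies at chr1:90203980-90216751. Its levels were 58.67, 72.43, 66.05 and 76.87 CPM in Sham WT and 88.57, 82.64, 110.5 and 69.37 CPM in TAC WT, while TAC KO had 85.06, 158.6, 90.66 and 103.5 CPM. TAC KO lay wholly above Sham WT, with library 2 of TAC KO the highest of all, and TAC WT overlapped both. From Sham WT to TAC KO the log2 change of Ackr3 was 0.68 (SE 0.18, adjusted p = 0.012), and it was called in all 12 fits that left out 1 library. The steps from Sham WT to TAC WT (0.36, SE 0.18, adjusted p = 0.18) and from TAC WT to TAC KO (0.32, SE 0.18, adjusted p = 0.19) did not pass.

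Cxcr4, the signalling receptor for CXCL12, had means of 8.53 ± 1.37 CPM in Sham WT and 6.12 ± 1.68 in TAC WT, against 6.31 ± 0.571 in TAC KO. All 4 TAC KO libraries, at 5.786 to 7.072 CPM, lay below the lowest Sham WT library, at 7.196 CPM. Against Sham WT, Cxcr4 had a log2 change of -0.47 in TAC WT (SE 0.16, adjusted p = 0.056) and -0.43 in TAC KO (SE 0.16, adjusted p = 0.064), so neither passed. The threshold was crossed in some other settings, among them DESeq2 and limma voom for both comparisons. Between TAC KO and TAC WT the log2 change was 0.04 (SE 0.17, adjusted p = 0.87).

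Cxcl14, a CXC ligand made by stromal and epithelial cells (chr13:56288643-56296551), was the third most abundant member per length. Its levels were 21.62, 33.96, 23.26 and 26.33 CPM in Sham WT and 31.9, 29.55, 36.41 and 27.45 CPM in TAC WT, while TAC KO had 23.53, 18.03, 26.28 and 14.94 CPM. All TAC KO libraries were below all TAC WT libraries, and Sham WT overlapped both. Cxcl14 had a log2 change from TAC WT to TAC KO of -0.60 (SE 0.17, adjusted p = 0.014), and -0.79 with the GC and length trends removed. Against Sham WT the log2 change was 0.25 in TAC WT (SE 0.17, adjusted p = 0.31) and -0.35 in TAC KO (SE 0.17, adjusted p = 0.14).

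The summed level of 13 fibroblast markers was 1868 to 2125 CPM in Sham WT and 2155 to 2756 CPM in TAC WT, against 2573 to 3247 CPM in TAC KO, and that of 14 endothelial markers was 2644 to 2999, 2852 to 3490 and 2446 to 2878 CPM. From TAC WT to TAC KO, 4 of the 12 tested fibroblast markers rose and none fell, and 3 of the 14 endothelial markers fell (Flt1, Kdr and Tek) and none rose. Over all tested genes 15.7% were called higher and 17.3% lower in this comparison, the second close to the share of endothelial markers that fell. Cxcl12 and Cxcl14 fell in the same comparison. Whether these cell types had a part in the changes of Cxcl12 and Cxcl14 was not tested.

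Cxcl1 and Cxcl2 attract neutrophils through Cxcr2 and lie side by side on chromosome 5, Cxcl1 at chr5:90891241-90893115 and Cxcl2 at chr5:90903871-90905938. Both fell from TAC WT to TAC KO. Their promoters are shown because the pair moved in the same direction, together with that of Ccrl2, which moved in the opposite one. Each line gives the 250 bases before the transcription start in RefSeq (GRCm38.p6), at chr5:90890995-90891244 on the plus strand for Cxcl1, chr5:90903649-90903898 on the plus strand for Cxcl2 and chr9:111057519-111057768 on the minus strand for Ccrl2, the last taken at the start nearest to the annotated end of the gene. Capitals mark matches to the NF-kappaB consensus and to TGGAAA, the NFAT motif searched for, on either strand. Shorter forms of that motif were not marked.
Cxcl1: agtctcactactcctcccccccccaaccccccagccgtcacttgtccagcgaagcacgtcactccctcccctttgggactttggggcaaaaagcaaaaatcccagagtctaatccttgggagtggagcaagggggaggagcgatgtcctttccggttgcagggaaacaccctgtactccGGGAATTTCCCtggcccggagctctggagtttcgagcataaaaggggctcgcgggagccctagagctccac
Cxcl2: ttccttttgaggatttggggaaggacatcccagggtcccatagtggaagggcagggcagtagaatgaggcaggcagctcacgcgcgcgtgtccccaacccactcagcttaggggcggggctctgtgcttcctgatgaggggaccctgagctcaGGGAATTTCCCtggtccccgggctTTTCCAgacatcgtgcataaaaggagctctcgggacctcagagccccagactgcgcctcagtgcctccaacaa
Ccrl2: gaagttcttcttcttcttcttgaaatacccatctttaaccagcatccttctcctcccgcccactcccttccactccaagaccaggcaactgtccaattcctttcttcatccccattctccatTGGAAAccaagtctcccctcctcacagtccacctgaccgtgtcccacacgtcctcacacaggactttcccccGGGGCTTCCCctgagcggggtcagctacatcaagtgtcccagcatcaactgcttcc
The Cxcl1 and Cxcl2 windows hold the same run, GGGAATTTCCC, in which the NF-kappaB consensus matches at 2 overlapping places, from base -71 to -61 before the start of Cxcl1 and from -97 to -87 before that of Cxcl2. The Cxcl2 window also holds TTTCCA, the reverse complement of the NFAT motif TGGAAA, at -73 to -68. In the Ccrl2 window TGGAAA stands at -128 to -123 and a match to the NF-kappaB consensus, GGGGCTTCCC, at -56 to -47.

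Of 32851 promoter windows of this length in the RefSeq table, 7.25% held the NF-kappaB consensus, 18.6% held TGGAAA and 4.46% held the AP-1 motif TGACTCA, each counted on both strands. Promoters were found for 32 of the 44 genes, in 37 windows, of which 7 held the NF-kappaB consensus, 12 held TGGAAA and 2 held the AP-1 motif. Counted by gene, 7 had an NF-kappaB match (Ackr2, Ccl9, Ccr1, Ccrl2, Cxcl1, Cxcl10 and Cxcl2), 10 had TGGAAA and 2 had the AP-1 motif. The windows of Cxcl12 and Cxcl14 held none of the 3 motifs in these letters. A match describes letters and is not evidence that a factor binds there.

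Cxcl1 stood at 4.49, 10.17, 5.371 and 4.731 CPM in Sham WT and 8.556, 6.525, 9.538 and 10.51 CPM in TAC WT, while TAC KO had 5.875, 3.697, 3.249 and 3.006 CPM. TAC KO lay wholly below TAC WT, and library 2 of Sham WT reached the TAC WT range. Between TAC WT and TAC KO, Cxcl1 had a log2 change of -1.16 (SE 0.27, adjusted p = 0.0048), and it was called in every one of 8 other settings and 12 fits without 1 library. In TAC WT against Sham WT the log2 change was 0.50 (SE 0.26, adjusted p = 0.19), a difference that did pass when library 2 of Sham WT was left out.

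Cxcl2 was lower, at 0.2676, 0.5155, 0.5428 and 0.3667 CPM in Sham WT and 1.312, 0.4617, 0.9449 and 1.507 CPM in TAC WT, while TAC KO had 0.3779, 0.3858, 0.798 and 0.4867 CPM. Library 2 of TAC WT fell within the range of both other groups, so all ranges overlapped. Cxcl2 had a log2 change of 1.29 from Sham WT to TAC WT (SE 0.36, adjusted p = 0.021) and -1.01 from TAC WT to TAC KO (SE 0.35, adjusted p = 0.038). The rise was lost without library 1 or 4 of Sham WT or library 1 or 4 of TAC WT and with 1 surrogate variable. The fall was lost without library 1, 3 or 4 of TAC WT or library 1, 2 or 4 of TAC KO, in the fit of those groups alone and with 1 surrogate variable. Over these settings the adjusted p reached 0.347 for the rise and 0.17 for the fall.

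Cxcl5, another neutrophil attractant, was called in no comparison, and its log2 changes were 0.76 in TAC WT (adjusted p = 0.27) and 0.80 in TAC KO (adjusted p = 0.21), both against Sham WT. Their shared receptor Cxcr2 was low, with means of 0.398 ± 0.253 CPM in Sham WT and 0.324 ± 0.117 in TAC WT, while TAC KO had 0.261 ± 0.234. Summed neutrophil markers were 3.411 to 9.307 CPM in Sham WT and 4.948 to 6.987 in TAC WT, against 5.525 to 22.36 in TAC KO, so they were not lower where Cxcl1 and Cxcl2 were lower. Only 4 of the 11 neutrophil markers were tested, of which Mmp9 rose from TAC WT to TAC KO, and none was at 0 in all libraries. Summed immediate early genes, which respond to tissue handling, were 483.1 to 856 CPM in Sham WT and 802.6 to 1086 in TAC WT, while TAC KO had 503.5 to 750.9, and they moved in the same direction as Cxcl1 and Cxcl2. Their part in these results was not tested.

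Of 26 genes of the NF-kappaB pathway and its feedback, 6 rose and none fell from Sham WT to TAC WT, with Nfkbiz at 0.94 and Bcl3 at 0.92 on the log2 scale. From TAC WT to TAC KO, 2 rose and 5 fell, among them Nfkbiz at -0.73 and Tnfaip3 at -0.57. Beside the 6 of 26 genes called after constriction, all higher, stand 9.67% of all tested genes called higher. Beside the 7 of 26 called in the knockout comparison stand 33% of all tested genes, and beside the 5 that fell 17.3%, so those counts were near or below the background. The median log2 change of the 26 genes was 0.17 and then -0.12. This list was not picked for how its genes moved, but it was drawn up with earlier results of these data known.

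**Figure D3:**
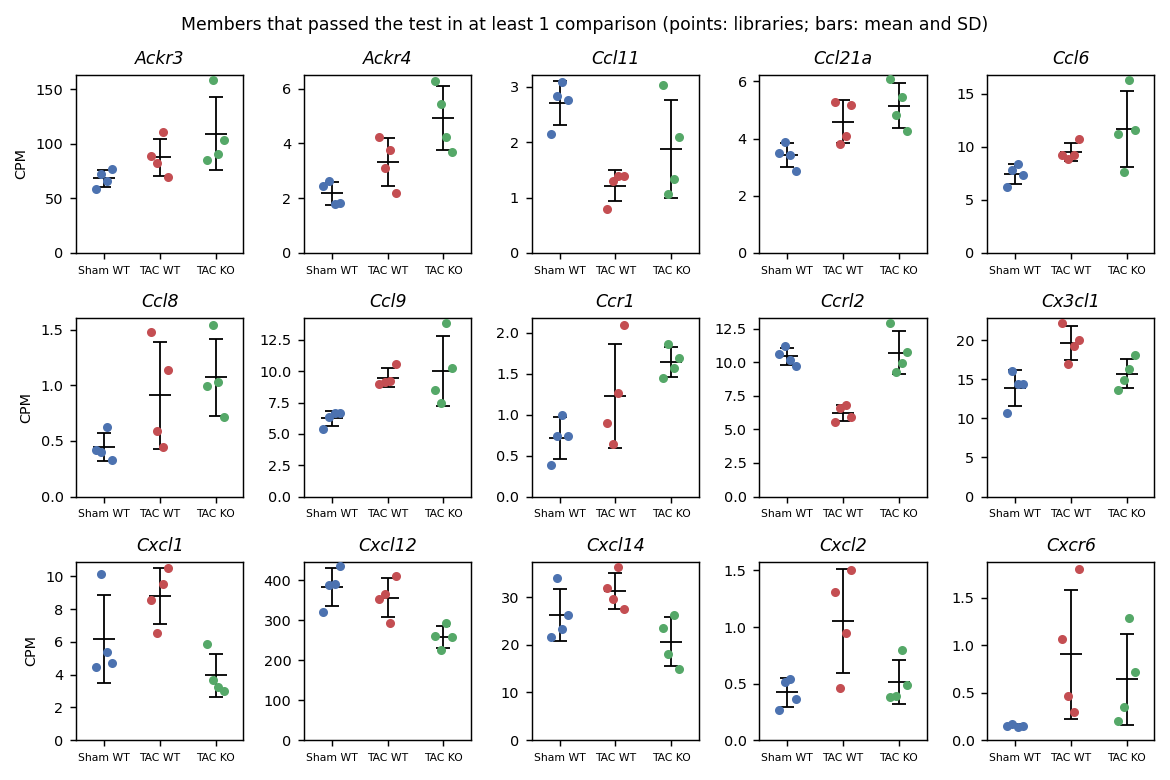
Level in CPM (vertical axis, from 0) of the 15 genes called in at least 1 comparison, by group, with 1 point per library and bars for the mean and SD of 4 libraries. Ccrl2 has its TAC WT points, at 5.522 to 6.851 CPM, below all points of both other groups, and Cxcl12 has its TAC KO points, at 225.0 to 292.6 CPM, below all wild-type points.

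Ccrl2 (chr9:111054486-111057519) encodes an atypical receptor that presents chemerin to its signalling receptor Cmklr1 and does not itself signal. It stood at 10.59, 11.23, 10.14 and 9.755 CPM in Sham WT and 5.522, 6.556, 6.851 and 5.916 CPM in TAC WT, while TAC KO had 12.92, 9.291, 9.918 and 10.74 CPM. No TAC WT library reached either other group, and Sham WT and TAC KO overlapped. The log2 change of Ccrl2 was -0.75 from Sham WT to TAC WT (SE 0.11, adjusted p = 0.00031) and 0.78 from TAC WT to TAC KO (SE 0.11, adjusted p = 2.0e-04). Between TAC KO and Sham WT it was 0.04 (SE 0.11, adjusted p = 0.83), a value that became -0.03 with the GC and length trends removed. Both calls were made in all 8 other settings and in all 12 fits without 1 library, with an adjusted p of at most 0.0039.

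Chemerin and Cmklr1 lie outside the symbol rule and were on the list of other chemoattractant genes. Cmklr1 had means of 13.8 ± 1.53 CPM in Sham WT and 22.4 ± 2.54 in TAC WT, while TAC KO had 15.5 ± 1.25, so it was highest where Ccrl2 was lowest. Its log2 change was 0.70 from Sham WT to TAC WT (SE 0.10, adjusted p = 2.4e-04) and -0.53 from TAC WT to TAC KO (SE 0.10, adjusted p = 0.0013). The chemerin gene Rarres2 rose by 0.38 from TAC WT to TAC KO (SE 0.09, adjusted p = 0.0061). Of the 17 tested genes on that list, 3 rose and 2 fell from Sham WT to TAC WT, and 5 rose and 2 fell from TAC WT to TAC KO. Over all tested genes 9.67% were called higher and 10% lower in the first of these comparisons. In the second, 15.7% were called higher and 17.3% lower.

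Of the other atypical receptors, Ackr4 was called higher in TAC KO than in Sham WT, and Ackr2 passed in no comparison. Ackr4, which removes Ccl19, Ccl21 and Ccl25 (chr9:104084157-104126933), was at 2.438, 2.635, 1.8 and 1.834 CPM in Sham WT and 4.237, 3.109, 3.75 and 2.205 CPM in TAC WT, while TAC KO had 6.287, 5.433, 4.247 and 3.693 CPM. All TAC KO libraries exceeded all Sham WT libraries, and TAC WT lay between, overlapping both. From Sham WT to TAC KO the log2 change of Ackr4 was 1.16 (SE 0.21, adjusted p = 0.0015). The separate steps were 0.62 (SE 0.22, adjusted p = 0.061) and 0.55 (SE 0.21, adjusted p = 0.053). Exons of Ackr4 share 8.9% of their bases with Acad11 on the opposite strand, and whether reads were counted by strand is not stated in the sources used here.

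Ackr2, a scavenger of inflammatory CC chemokines, had 2.18 ± 0.209 CPM in Sham WT and 2.96 ± 0.423 in TAC WT, while TAC KO had 2.73 ± 0.655. Its TAC WT libraries lay above all Sham WT libraries, with a log2 change of 0.44 (SE 0.17, adjusted p = 0.084). Ackr1, which binds chemokines on venules and red cells, was too low to test, at 0.155 ± 0.0789, 0.257 ± 0.05 and 0.275 ± 0.037 CPM. It shares 25.7% of its exon bases with Cadm3 on the same strand, so its counts are uncertain.

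Ccl21a and Ccl19 are the ligands of Ccr7, the receptor that guides dendritic cells and lymphocytes to lymph nodes. Ccl21a was at 3.509, 3.895, 3.428 and 2.861 CPM in Sham WT and 5.276, 3.817, 4.104 and 5.181 CPM in TAC WT, while TAC KO had 6.081, 4.822, 5.444 and 4.265 CPM. TAC KO lay wholly above Sham WT, with a log2 change of 0.58 (SE 0.14, adjusted p = 0.0091), which became 0.35 and did not pass (adjusted p = 0.090) with the GC and length trends removed. The log2 change from Sham WT to TAC WT was 0.42 (SE 0.15, adjusted p = 0.057). Ccl21a has near-identical copies, among them Ccl21b and Gm21541, that were listed at 0 counts, so its reads could stem from more than 1 gene.

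Ccl19 was too low to test, at 0.0833 ± 0.0233 CPM in Sham WT and 0.0595 ± 0.03 in TAC WT, while TAC KO had 0.256 ± 0.173. Its lowest TAC KO library, at 0.1431 CPM, was above every wild-type library, but library 3 of TAC KO, at 0.513 CPM, raised the mean. Ccr7 itself had 0.407 ± 0.0894, 0.274 ± 0.143 and 0.418 ± 0.124 CPM and was called in no comparison. Summed lymphatic endothelial markers, a class of cells that makes Ccl21, were 125.3 to 148.9 CPM in Sham WT and 125.5 to 146.3 in TAC WT, against 113.2 to 121.2 in TAC KO. The sum was thus lower in TAC KO, where Ccl21a was higher than in Sham WT, but its genes did not move together. Against Sham WT, Prox1, the gene with the largest part in the sum (73.9 CPM in Sham WT and 54.3 in TAC KO), and Flt4 were lower in TAC KO by -0.45 and -0.31 on the log2 scale, while Lyve1, which is also on the macrophage list, and Pdpn were higher by 0.48 and 1.19. The other 2 of the 6 markers were not called. Their part in the level of Ccl21a was not tested.

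Ccl2 and Ccl7, at chr11:82035571-82037453 and chr11:82045712-82047525, attract monocytes through Ccr2. Ccl2 was at 6.036, 7.503, 6.485 and 8.728 CPM in Sham WT and 11.56, 9.141, 12.11 and 31.34 CPM in TAC WT, while TAC KO had 2.645, 6.269, 15.22 and 13.57 CPM. All TAC WT libraries lay above all Sham WT libraries, and library 4 of TAC WT was far above the others of its group, while TAC KO spread over the ranges of both. On the log2 scale Ccl2 differed by 1.15 from Sham WT to TAC WT (SE 0.45, adjusted p = 0.085) and -0.75 from TAC WT to TAC KO (SE 0.44, adjusted p = 0.21), so neither passed. Without library 4 of TAC WT they were 0.61 (adjusted p = 0.33) and -0.20 (adjusted p = 0.73). The rise did pass in the fit of those groups alone, with no filter on low counts, and without library 2 of TAC WT or library 1 of TAC KO.

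Ccl7 was highest in the same library as Ccl2, with 4.282 to 6.157 CPM in Sham WT, 6.233 to 6.679 CPM in libraries 1 to 3 of TAC WT, 17.78 CPM in library 4 of TAC WT and 2.733 to 8.436 CPM in TAC KO. Its log2 changes were 0.78 from Sham WT to TAC WT (SE 0.37, adjusted p = 0.16) and -0.80 from TAC WT to TAC KO (SE 0.37, adjusted p = 0.12). Ccl12, a further ligand of Ccr2, also had its highest value in library 4 of TAC WT, at 4.152 CPM, and passed in no comparison. Ccr2 had 4.18 ± 0.421, 5.76 ± 2.12 and 3.78 ± 0.97 CPM in Sham WT, TAC WT and TAC KO. Its log2 change of -0.60 from TAC WT to TAC KO did not pass (SE 0.23, adjusted p = 0.057).

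Summed monocyte markers were 132.7 to 164.4 CPM in Sham WT and 223.5 to 291.7 in TAC WT, against 176.3 to 236.8 in TAC KO. Of the 8 tested monocyte markers, Ace, Vcan and Nr4a1 rose and none fell from Sham WT to TAC WT, where 9.67% of all tested genes were called higher. Nr4a1, which is also on the list of immediate early genes, had means of 42.0, 110.3 and 45.0 CPM in the order Sham WT, TAC WT, TAC KO, Ace had 56.9, 91.6 and 94.0 CPM and Vcan had 15.4, 38.9 and 29.3 CPM, so the rise of the sum lay in these 3 genes. From TAC WT to TAC KO Nr4a1 fell by 1.3 on the log2 scale while F13a1, a marker of classical monocytes, rose by 0.54. F13a1 had means of 25.6, 23.2 and 33.65 CPM in the same order, and Spn, F13a1, Hp, Chil3 and Plac8 were not called from Sham WT to TAC WT. TAC WT did not overlap Sham WT in this sum or in Ccl2, and it did overlap Sham WT in Ccr2. The part of monocytes in the levels of these genes was not tested.

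**Figure D4:**
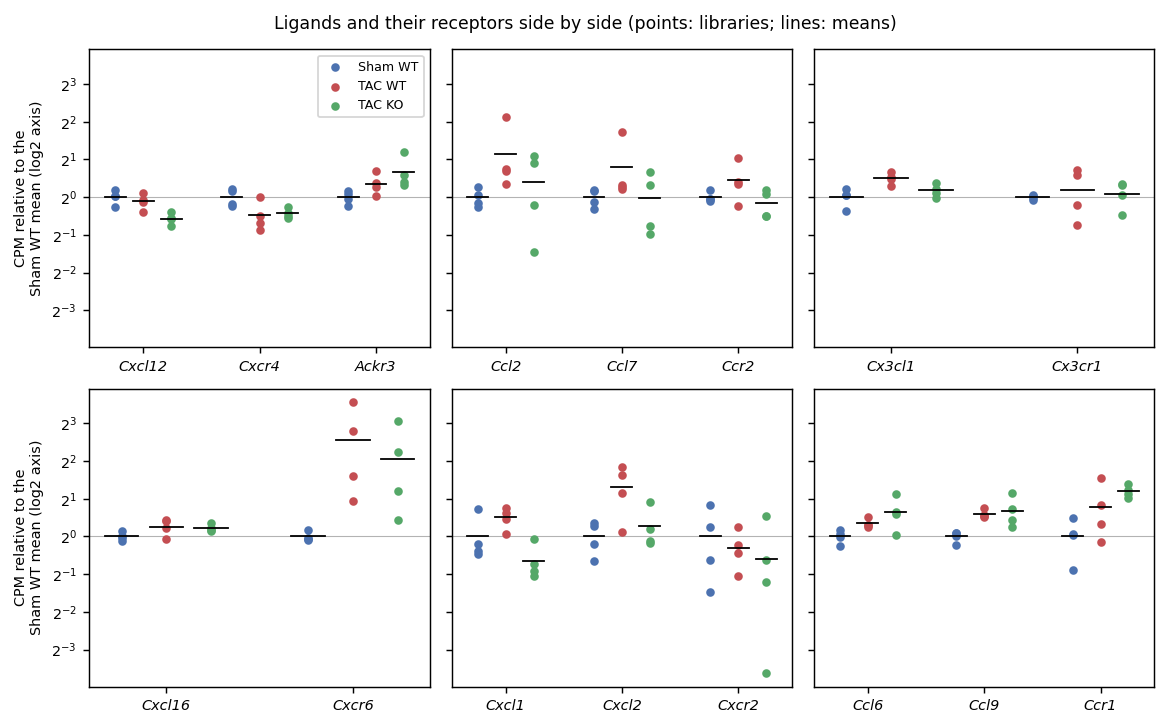
Level of ligands beside their receptors in each library, as CPM divided by the Sham WT mean on a log2 axis, with 1 point per library and a line at each group mean. The panel of Cxcl12 has its TAC KO points below the Sham WT mean while those of Ackr3 lie above it, and the Cxcr6 panel has all TAC WT and TAC KO points above all Sham WT points.

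Cx3cl1 (chr8:94772009-94782427) encodes a membrane-bound chemokine of endothelial cells, and Cx3cr1 its receptor on monocytes and resident macrophages. Cx3cl1 was at 10.67, 16.09, 14.37 and 14.41 CPM in Sham WT and 22.25, 16.99, 19.25 and 20.03 CPM in TAC WT, while TAC KO had 13.64, 14.95, 16.27 and 18.06 CPM. TAC WT lay wholly above Sham WT, and TAC KO overlapped both. The log2 change of Cx3cl1 was 0.50 from Sham WT to TAC WT (SE 0.12, adjusted p = 0.011), and 0.36 with 1 surrogate variable, where it did not pass (adjusted p = 0.12). From TAC WT to TAC KO it was -0.32 (SE 0.12, adjusted p = 0.058), and with the GC and length trends removed it was -0.42 and did pass (adjusted p = 0.028).

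Cx3cr1 (chr9:119901616-120069879) was at 5.263, 4.84, 5.057 and 5.391 CPM in Sham WT and 7.654, 3.078, 4.488 and 8.414 CPM in TAC WT, while TAC KO had 3.676, 6.526, 6.384 and 5.353 CPM. The Sham WT libraries were close together, and the TAC WT libraries fell on both sides of them. Log2 changes of Cx3cr1 were 0.20 from Sham WT to TAC WT (SE 0.25, adjusted p = 0.63), -0.10 from TAC WT to TAC KO (SE 0.25, adjusted p = 0.79) and 0.10 from Sham WT to TAC KO (SE 0.25, adjusted p = 0.81). No difference in Cx3cr1 was thus detectable with this spread.

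Cxcr6, the receptor for Cxcl16 on T and natural killer T cells (chr9:123806475-123811760), was low in Sham WT. No Sham WT library reached the filter level of 0.295 CPM, so Cxcr6 was tested through the TAC groups in which it was high, which favours a call against Sham WT. It was at 0.1487, 0.1718, 0.1428 and 0.1467 CPM in Sham WT and 1.066, 0.4617, 0.2953 and 1.8 CPM in TAC WT, while TAC KO had 0.2061, 0.3536, 1.283 and 0.7157 CPM. Every TAC library lay above every Sham WT library, and the TAC libraries varied widely. Cxcr6 rose by 2.51 on the log2 scale in TAC WT (SE 0.65, adjusted p = 0.015) and by 2.07 in TAC KO (SE 0.68, adjusted p = 0.034), both against Sham WT. With 1 surrogate variable the change in TAC WT was 1.0 and the call was lost (adjusted p = 0.15), and that in TAC KO was 1.34. In TAC KO the call was lost without any 1 of the Sham WT libraries or without library 3 or 4 of TAC KO, with an adjusted p of up to 0.13.

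Cxcl16 had 10.3 ± 0.801 CPM in Sham WT and 12.3 ± 1.86 in TAC WT, against 12.1 ± 0.837 in TAC KO. It passed in no comparison. Every TAC KO library was above every Sham WT library, but the ranges nearly touched, at 11.38 CPM for the lowest TAC KO and 11.37 CPM for the highest Sham WT library. Its exons share 18.3% of their bases with Zmynd15 on the opposite strand. Of 18 T and natural killer cell markers 6 were tested and none was called in any comparison, with sums of 4.328 to 5.457 CPM in Sham WT and 4.124 to 5.769 in TAC WT, while TAC KO had 3.118 to 6.081. These sums overlapped in all groups, whereas Cxcr6 did not overlap between Sham WT and either TAC group.

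Ccl6 and Ccl9 are ligands of Ccr1, which myeloid cells carry, and lie next to each other at chr11:83587882-83593087 and chr11:83572919-83578636. Ccl9 was at 5.352, 6.329, 6.628 and 6.675 CPM in Sham WT and 8.994, 9.172, 9.242 and 10.58 CPM in TAC WT, while TAC KO had 8.485, 7.49, 13.82 and 10.28 CPM. Both TAC groups lay wholly above Sham WT. Ccl9 rose against Sham WT by 0.60 on the log2 scale in TAC WT (SE 0.16, adjusted p = 0.014) and by 0.69 in TAC KO (SE 0.16, adjusted p = 0.0057), and between TAC KO and TAC WT it was 0.08 (SE 0.15, adjusted p = 0.72). With 1 surrogate variable the change in TAC WT was 0.35 and did not pass (adjusted p = 0.15).

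Ccl6 was at 6.214, 7.818, 8.371 and 7.335 CPM in Sham WT and 9.24, 8.834, 9.213 and 10.73 CPM in TAC WT, while TAC KO had 11.2, 7.587, 16.3 and 11.62 CPM. TAC WT lay above Sham WT, and in TAC KO library 2 fell within the Sham WT range. From Sham WT to TAC KO the log2 change of Ccl6 was 0.65 (SE 0.17, adjusted p = 0.013), and from Sham WT to TAC WT it was 0.35 (SE 0.18, adjusted p = 0.18).

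Ccr1 (chr9:123962124-123968692) was at 0.3865, 0.7446, 0.9999 and 0.7335 CPM in Sham WT and 0.9021, 0.6464, 1.27 and 2.094 CPM in TAC WT, while TAC KO had 1.443, 1.865, 1.568 and 1.689 CPM. The 4 TAC KO libraries were close together and above all of Sham WT, while TAC WT spread across both. Ccr1 had a log2 change from Sham WT to TAC KO of 1.19 (SE 0.32, adjusted p = 0.014). The separate steps were 0.75 (SE 0.33, adjusted p = 0.13) and 0.44 (SE 0.30, adjusted p = 0.29).

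Ccl8, also on chromosome 11 (chr11:82115185-82116799), was at 0.4163, 0.4009, 0.6285 and 0.3301 CPM in Sham WT and 1.476, 0.5848, 0.4429 and 1.139 CPM in TAC WT, while TAC KO had 0.9963, 1.543, 1.026 and 0.7157 CPM. TAC KO lay wholly above Sham WT. The log2 change of Ccl8 from Sham WT to TAC KO was 1.24 (SE 0.37, adjusted p = 0.024), and 1.15 without a call with the GC and length trends removed (adjusted p = 0.057). The call was also lost without library 1, 2 or 4 of Sham WT or library 2 of TAC KO, with an adjusted p of up to 0.072.

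Summed macrophage markers were 263.8 to 321.6 CPM in Sham WT and 250.9 to 357.8 in TAC WT, against 352.2 to 463.6 in TAC KO. From Sham WT to TAC KO, 13 of the 19 macrophage markers rose and 1 fell. Over all tested genes 12.8% were called higher and 14.8% lower in that comparison. From TAC WT to TAC KO 7 rose and none fell, where 15.7% of all tested genes were called higher. C1qb and C1qc had the smallest p-values of these, with log2 changes of 0.64 and 0.53, and the 7 changes ran from 0.455 for C1qa to 1.12 for Timd4. Ccl6, Ccl9, Ccr1 and Ccl8 were higher in the same group, TAC KO, than in Sham WT. From TAC WT to TAC KO, where the 7 markers rose, none of these genes was called (edgeR adjusted p = 0.20, 0.72, 0.29 and 0.65). Ccl9 was already called higher in TAC WT than in Sham WT (log2 change 0.60), where 1 of the 19 macrophage markers was called. The part of macrophages in these results was not tested, and Cx3cr1, which macrophages also carry, passed in none of the comparisons.

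**Figure D5:**
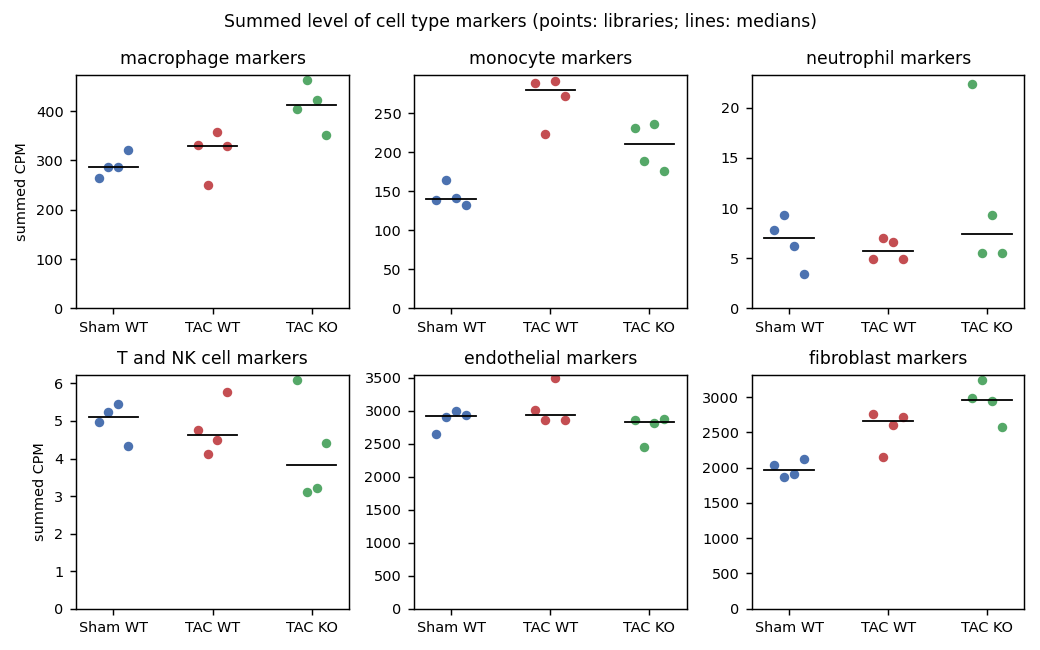
Summed level in CPM (vertical axis, from 0) of the markers of 6 cell types by group, with 1 point per library and a line at the group median. Macrophage sums reach 352.2 to 463.6 CPM in TAC KO, monocyte sums are highest in TAC WT, mostly through Nr4a1, Ace and Vcan, with part of the range shared with TAC KO, and T and natural killer cell sums overlap in all groups.

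Ccl11 (chr11:82057823-82062955), the eotaxin that attracts eosinophils through Ccr3, fell after constriction. It was at 2.141, 2.835, 3.085 and 2.751 CPM in Sham WT and 0.7928, 1.293, 1.388 and 1.396 CPM in TAC WT, while TAC KO had 3.023, 1.061, 1.34 and 2.09 CPM. TAC WT lay wholly below Sham WT, and TAC KO spanned the range from one to the other. The log2 change of Ccl11 was -1.16 from Sham WT to TAC WT (SE 0.28, adjusted p = 0.0098), and -0.86 with 1 surrogate variable, where it did not pass (adjusted p = 0.10). From TAC WT to TAC KO it was 0.63 (SE 0.29, adjusted p = 0.11). Ccl24, another eotaxin, passed in no comparison and had means of 0.949 ± 0.383, 0.791 ± 0.246 and 1.11 ± 0.552 CPM in Sham WT, TAC WT and TAC KO. Their receptor Ccr3 had 5 counts over all libraries.

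Cxcl9 and Cxcl10, interferon-induced ligands of Cxcr3, passed in no comparison. Cxcl10 had 0.603 ± 0.0824 CPM in Sham WT and 1.62 ± 1.23 in TAC WT, against 0.824 ± 0.591 in TAC KO, with its TAC WT libraries above all Sham WT libraries and library 4 of TAC WT highest at 3.417 CPM. Its log2 change from Sham WT to TAC WT was 1.39 (SE 0.52, adjusted p = 0.074). Cxcl9 stayed between 2.832 and 4.611 CPM in all libraries. Cxcr3 was too low to test, at 0.12 ± 0.0344, 0.124 ± 0.0255 and 0.178 ± 0.0278 CPM.

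The remaining tested ligands were Ccl3, Ccl4, Ccl5, Ccl25 and the Ccr10 ligands Ccl27a and Ccl28. Their adjusted p-values ranged from 0.165 to 0.972 over the 3 comparisons. Against Sham WT, Ccl28 had log2 changes of -0.90 in TAC WT and -0.97 in TAC KO, with all libraries of both TAC groups below all Sham WT libraries, at 0.653 ± 0.0719, 0.337 ± 0.236 and 0.335 ± 0.181 CPM. It had 0 counts in library 4 of TAC WT, which allows up to 0.114 CPM. Ccl27a has a near-identical copy, Gm20878, listed at 0 counts, so its reads are also uncertain. Of the genes too low to test, Xcr1 had 0.0512 ± 0.0509 CPM in Sham WT and 0.206 ± 0.0834 in TAC WT, against 0.161 ± 0.0417 in TAC KO, and Cxcl13, Cxcr5, Ccl22 and Ccr10 had group means of 0.0755 to 0.279 CPM.

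The list of genes that carry the signal behind chemokine receptors held 59 symbols, of which 57 were found in the data and 55 were tested. From Sham WT to TAC WT 6 of them rose and 4 fell, with Rgs2, which speeds the shutdown of G proteins, at a log2 change of -1.58 and Rgs16, of the same family, at 0.97. From TAC WT to TAC KO 4 rose and 15 fell, with the kinase gene Akt1 at 1.02, the kinase genes Rock1 and Rock2 at -0.79 and -0.68, and the G protein gene Gnaq at -0.61. Their median log2 change was 0.08 and then -0.10. The 10 of 55 genes called after constriction stand beside 19.7% of all tested genes, and the 19 of 55 called in the knockout comparison beside 33%. Both totals were close to the background. By direction, the 15 of 55 that fell in the knockout comparison stand beside 17.3% of all tested genes, and the 4 that rose beside 15.7%. In the main fit, which kept the GC and length trends that set TAC KO apart, the calls of this list thus leaned toward lower levels in TAC KO. The total does not show this lean, and the part of those trends in it is not given here.

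By position, 13 of the 44 genes lie on chromosome 11, 10 on chromosome 9 and 7 on chromosome 5. Ccl11, which fell after constriction, lies next to Ccl7, whose log2 change of 0.78 did not pass. Cxcl2, which rose, lies next to Cxcl1, whose log2 change of 0.50 did not pass.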

How the data were processed

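The deposited values were raw counts per gene record, with 54146 records in each of the 12 files. The submitters' processing notes name the build GRCm38, the aligner STAR, featureCounts 1.6.4 and StringTie 1.3.5, DESeq2, bcl2fastq, Trim Galore 0.5.0, FastQC 0.11.8 and MultiQC 1.7. Which of them made the files, with which settings, strand option and annotation release, is not given in the sources used here. Per the labels' protocols, directional libraries were made from 250 ng of RNA after selection of polyadenylated transcripts.

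Record identifiers were matched to GENCODE M21, which named 54079 records and left 67 without a symbol. Counts were tested in R 4.3.3 with edgeR 4.0.16 (TMM scaling, filterByExpr, quasi-likelihood test, 1 fit of all libraries without covariates) and adjusted by Benjamini-Hochberg over 15477 genes. CPM used TMM-scaled totals. A count of 0 was given an upper limit of 3 counts, 0.0835 to 0.114 CPM on unscaled totals, which covers counting error only. Alternatives were DESeq2 1.42.0, limma voom (limma 3.58.1) with quality weights, RLE scaling, no filter on low counts, a minimum of 1 CPM in at least 4 libraries, separate fits of only the 2 groups in a comparison, 1 surrogate variable (sva 3.50.0), offsets for the GC and length trend of each library (splines, 5 degrees of freedom), a member minimum of 100 counts, unscaled totals for levels, and leaving out 1 library at a time. The fit was checked on simulated data. Near-identical copies were searched with blastn 2.17.0 at 95% identity over at least 20% of the length.

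Any member could be named, save 1 that is counted but not reported here, and those called in at least 1 comparison, with Cxcl12, Ccl2 and Cx3cr1, were given per library. From other lists, up to 4 called genes per comparison with the smallest p could be named. Members and lists were chosen with earlier results of these data known.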

Additional observations from a re-analysis of the deposited data

Results flagged for a closer look

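In each group of 4 libraries, the highest and lowest level of each of the 44 genes was compared with the library nearest to it. A value was listed where that gap, divided by the range of the group, exceeded the 95% critical value of Dixon's test. Chance lists about 1 in 20 groups. Of 132 groups of 4 libraries, 11 held such a value.

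Library 4 of TAC WT held 4 of them. In it Ccl2 stood at 31.34 CPM against 9.141 to 12.11 CPM in the other libraries of its group, and Ccl7 at 17.78 CPM against 6.233 to 6.679 CPM. Ccl9 was at 10.58 CPM there, where the rest of the group was at 8.994 to 9.242 CPM. Xcr1 was at 0.3307 CPM against 0.1539 to 0.1772 CPM.

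In TAC KO, library 3 had 3 such values, with Ccl19 at 0.513 CPM (0.1431 to 0.2061 in the others), Cxcl5 at 0.7695 CPM (0.5144 to 0.5497) and the lowest Ccr10 level, 0.057 CPM (0.1286 to 0.1431). Ccl24 in library 2 reached 1.929 CPM beside 0.7695 to 0.9276 CPM elsewhere in TAC KO. Ccl5 in library 1 was at 0.481 CPM beside 0.3135 to 0.3215 CPM. In library 2 of Sham WT, Cxcl1 was at 10.17 CPM, with 4.49 to 5.371 CPM in its group, and Cxcr5 was at 0.3437 CPM, with 0.2 to 0.22 CPM. Several of these levels rest on few counts, among them those of Ccl19, Ccr10, Cxcr5 and Xcr1, which were too low to test.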

How the results depend on the processing

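No paired analysis was possible because the labels carry no replicate numbers. Of 20 calls of a gene in a comparison, those of Ackr3, Ackr4, Ccl6, Ccl9, Ccr1 and Cxcl12 in TAC KO against Sham WT, of Ccrl2 in both comparisons with TAC WT, and of Cxcl1, Cxcl12 and Cxcl14 in TAC KO against TAC WT were made under every alternative that gave a value. The others lost their call under the settings named beside them. In all, 1013 log2 changes were recomputed for 51 pairs of gene and comparison, of which 919 kept their direction and side of the threshold, 29 lost a call, 45 gained one and 20 changed sign, none of the last a call.

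The number of genes called higher in TAC WT than in Sham WT (4) became 8 with DESeq2, 8 with limma voom, 10 with no filter on low counts, 2 at 1 CPM in 4 libraries, 8 in the fit of those groups alone and 1 with 1 surrogate variable, and ran from 3 to 11 when 1 library was left out, with 11 without library 2 of TAC WT and 7 without library 1 of TAC KO. Genes called lower there (2) became 1 with 1 surrogate variable and ran from 2 to 3. Genes called higher in TAC KO than in TAC WT (1) became 2 with DESeq2 and 3 with no filter, and ran from 1 to 3, with 3 without library 2 of TAC KO and 2 without library 1 or 4 of TAC WT or library 3 or 4 of TAC KO. Genes called lower there (4) became 7 with no filter and ran from 3 to 6. Genes higher in TAC KO than in Sham WT (8) ran from 6 to 8. Genes lower there (1) became 3 with DESeq2, 5 with limma voom, 3 with no filter, 2 in the fit of those groups alone and 3 with the GC and length trends removed, and ran from 1 to 3, with 3 without library 1 of TAC KO and 2 without library 2 or 3 of TAC WT or library 3 of TAC KO. The cause of these moves was not tested.

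Signs of uncalled changes turned with 1 surrogate variable for Ccl2 (-0.11 in TAC WT and -0.16 in TAC KO, against Sham WT), Cx3cr1 (-0.34 for TAC WT against Sham WT, 0.29 for TAC KO against TAC WT and -0.052 for TAC KO against Sham WT), Cxcl2 (-0.0001 for TAC KO against Sham WT) and Cxcr6 (0.34 for TAC KO against TAC WT). With the GC and length trends removed they turned for Ccl21a (-0.058 for TAC KO against TAC WT) and Ccrl2 (-0.034 for TAC KO against Sham WT), and with limma voom for Ccl8 (-0.058 for TAC KO against TAC WT). When 1 library was left out, the log2 changes of TAC KO against TAC WT spanned 0 for Ccl8 (-0.0077 to 0.588, below 0 without library 3 of TAC WT or library 2 of TAC KO), Ccl9 (-0.114 to 0.195, below 0 without library 3 of TAC KO), Cx3cr1 (-0.313 to 0.109, above 0 without library 1 or 4 of TAC WT or library 1 of TAC KO) and Cxcr6 (-1.02 to 0.089, above 0 without library 4 of TAC WT). Those of TAC KO against Sham WT did so for Ccrl2 (-0.056 to 0.102, below 0 without library 1 of TAC KO) and Cxcl2 (-0.023 to 0.424, below 0 without library 3 of TAC KO), and that of TAC WT against Sham WT for Cx3cr1 (-0.0065 to 0.414, below 0 without library 4 of TAC WT).

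None of 132 group means moved by more than 1 SD on unscaled totals. Cxcl2 and Cxcr6 were not tested at 1 CPM in 4 libraries. Cxcr6 had a value under 7 other settings in TAC WT against Sham WT, but under 6 in TAC KO against Sham WT. Past the filter level for Cxcr6 were 0 Sham WT, 4 TAC WT and 3 TAC KO libraries, so it passed the filter with the TAC WT libraries counted. Depth limits the genes below 0.295 CPM most, since 3 counts there correspond to 0.0835 to 0.114 CPM.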
